A study of Mus musculus with 6 samples.

Results

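The intercalated disc is the end-to-end contact between heart muscle cells. A set of 10 of its genes was chosen by name from the 17447 gene rows of a heart RNA-seq count table: the connexins Gja1, Gja5 and Gjc1 of the gap junction, the desmosomal genes Dsp, Pkp2, Jup, Dsg2 and Dsc2, and the adherens junction genes Cdh2 and Ctnna3. All 10 were in the table. The levels below are those of 3 hearts from sham-operated wild-type mice, which had anaesthesia, opening of the abdomen and exposure of the kidneys but kept all their kidney tissue. The other 3 hearts came from wild-type mice with chronic kidney disease (CKD), made by removing both poles of the left kidney and, in a second operation, the whole right kidney. Age, sex, strain, the part of the heart taken and the time from surgery to sampling are not given in the labels, and nothing beyond the sample names says that each sample is a separate animal.

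The CKD columns could not be used for these genes, because their values did not correspond to their row names. The Spearman correlation across all genes was 0.982 to 0.985 between sham columns and 0.984 to 0.987 between CKD columns, but -0.0586 to -0.0528 between a sham and a CKD column. The counts of the Dsp row were 14581, 15642 and 17773 in the sham columns but 95, 75 and 101 in the CKD columns. For the Gja5 row the sham counts were 129, 84 and 189, and the CKD counts 615, 555 and 582. The median percentile of 15 ventricular muscle markers among all rows was 99.9 in sham and 32.2 in CKD, and that of the 10 disc genes was 93.5 and 46.5. In the sham columns the tissue label held, since each of the 15 markers stood at percentile 99.6 or above. No value of a CKD column is used below, and CKD was not compared with sham. The sham columns held 10474487 to 12669724 counts, and a gene with no count in a column may reach 0.237 to 0.286 CPM (3 counts, for counting error only).

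The disc joins neighbouring muscle cells in several ways. Gap junctions are channels built of connexins that pass ions, and so the electrical impulse, from cell to cell. Desmosomes tie the intermediate filaments of both cells together: the cadherins desmoglein and desmocollin bridge the gap, plakoglobin and plakophilin bind their tails, and desmoplakin links these to desmin. Adherens junctions couple the actin of the sarcomeres through N-cadherin and the catenins. In the heart the latter structures mix in a hybrid zone, the area composita, and inherited faults of desmosomal genes are known causes of arrhythmogenic cardiomyopathy.

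All 10 genes were expressed in sham hearts, and they covered a wide range. Levels are given in CPM, a gene's count divided by the total of the column and multiplied by 1000000. All 10 passed an average of 1 CPM, as did 71.6% of all rows, and 6 of the 10 averaged at least 100 CPM, as did 9.73% of all rows. The highest was Dsp at 1429 ± 55.9 CPM and the lowest Gja5 at 11.7 ± 3.48 CPM (SD, n = 3 sham hearts, as for every ± below). A share of bulk tissue RNA is measured here, so fewer cells of a type and less RNA per cell cannot be told apart.

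**Figure D1:**
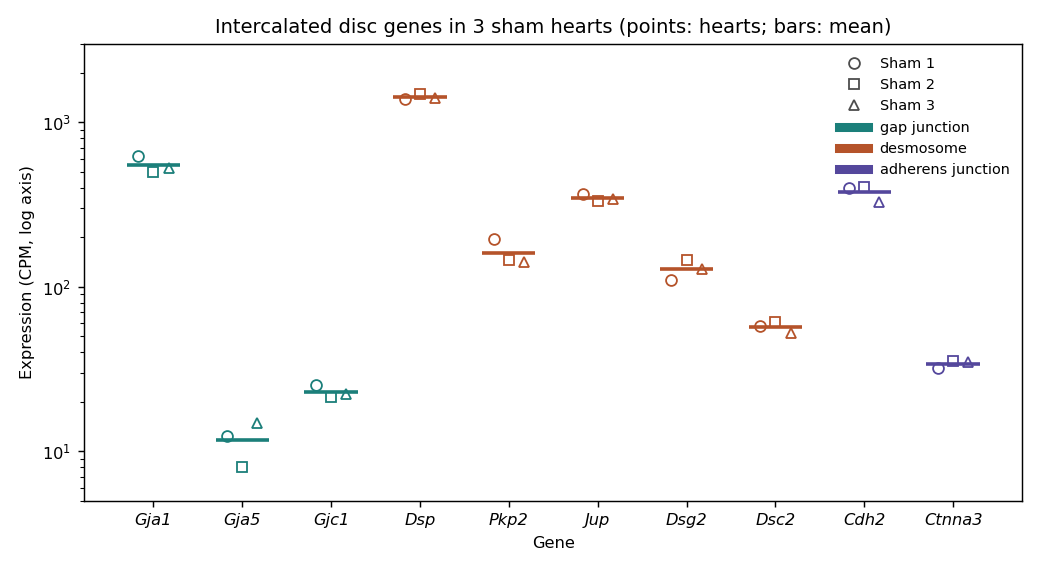
Expression in CPM (log axis) of the 10 intercalated disc genes, with a point for each of 3 sham hearts and a bar at their mean, coloured by junction. Dsp lies at 1391 CPM or more in every heart and Gja5 at 14.9 or less, while the highest heart is at most 1.86 times the lowest for any gene.

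Gja1, which encodes connexin 43, the main channel protein of working ventricular muscle, was by far the highest connexin. It gave 6535, 5206 and 6705 counts in sham 1, 2 and 3, or 624, 497 and 529 CPM, with a mean of 550 ± 65.7 CPM. Sham 1 was the highest of the 3 hearts. The 95% counting intervals, which cover counting error only, did not overlap between any hearts (608 to 639, 484 to 511 and 517 to 542 CPM).

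Gjc1 encodes connexin 45, a low-conductance connexin of the nodes and the early heart. It gave 25.4, 21.4 and 22.3 CPM in the 3 hearts, a mean of 23.0 ± 2.10, and its counting intervals overlapped for every pair of hearts. Per kilobase of coding sequence, the scale used here to compare genes, the Gja1 level was 25.5, 24.1 and 24.6 times the Gjc1 level, so this ratio varied by a CV (coefficient of variation, the SD as a percent of the mean) of 2.80%. Counting alone gives a CV of 6.25% for Gjc1 and 1.28% for Gja1. The ratio therefore showed no difference between hearts beyond counting error, and how constant it is cannot be told at this depth.

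Gja5 encodes connexin 40, known from atrial muscle, the fast conduction system and arterial endothelium. It was the lowest of the 10 genes, with 129, 84 and 189 counts, or 12.3, 8.02 and 14.9 CPM. Sham 2 was lowest, with a counting interval of 6.40 to 9.93 CPM that lay below those of sham 1 (10.3 to 14.6) and sham 3 (12.9 to 17.2). The CV of 29.6% was the largest among the 10 genes, where counting alone gives 8.75%. The Gja1 to Gja5 ratio per coding kilobase was 48.8, 59.7 and 34.2, a mean of 47.6, which became 83.3 with the length of all exons. In the reference annotation 165 bases of Gja5 exons overlap Gpr89 exons on the opposite strand. Because the labels do not say whether counting used the strand, reads of that stretch cannot be told apart. Gpr89 itself was at 24.4, 24.0 and 22.7 CPM.

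The RNA levels of markers of the cell types known to carry Gja5 also differed between the hearts. Summed over 10 conduction system markers the level was 204, 113 and 218 CPM in sham 1, 2 and 3, so it had the same order as Gja5. That order was not particular to this list, since the summed endothelial, fibroblast, smooth muscle and pericyte, and macrophage markers had it too. Of the conduction system markers with at least 1 CPM, 9 of 9 were lowest in sham 2, where 48.8% of all genes with at least 1 CPM were lowest. Isl1 of that list had no count, and Cntn2, a marker of Purkinje cells, was at 27.1, 4.68 and 35.8 CPM. The 8 arterial endothelial markers summed to 213, 173 and 206 CPM, highest in sham 1 and so not in the order of Gja5, with 5 of 8 lowest in sham 2. The 11 atrial markers summed to 2913, 241 and 664 CPM, so they were highest in sham 1, where Gja5 was not. Gja4, which encodes the arterial endothelial connexin 37, was at 15.0, 10.1 and 14.8 CPM and likewise lowest in sham 2. The part of these cell types in the Gja5 values was not tested.

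The promoters of Gja1 and Gja5 are shown because these are the highest and the lowest of the 3 connexins. Each is the 250 bases before the transcription start in RefSeq, build GRCm38.p6, on the plus strand (chr10:56377050-56377299 for Gja1 and chr3:97032152-97032401 for Gja5), written 5′ to 3′, with matches to the motifs searched in capitals.
Gja1: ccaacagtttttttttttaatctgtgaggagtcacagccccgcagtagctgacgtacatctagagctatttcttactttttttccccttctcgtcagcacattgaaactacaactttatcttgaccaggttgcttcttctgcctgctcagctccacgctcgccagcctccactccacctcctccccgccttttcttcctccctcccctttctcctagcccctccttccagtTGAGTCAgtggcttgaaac
Gja5: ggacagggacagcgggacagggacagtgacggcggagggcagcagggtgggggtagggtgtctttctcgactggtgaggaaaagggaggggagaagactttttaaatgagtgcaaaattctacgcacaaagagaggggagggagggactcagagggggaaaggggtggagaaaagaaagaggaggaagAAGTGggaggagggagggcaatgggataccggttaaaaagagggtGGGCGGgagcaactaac
A set of 5 motifs was searched on both strands. Gja1 held a match to the AP-1 motif TGAGTCA that begins 19 bases before the start, and this motif was present in 4.46% of 32851 such windows. Gja5 held a match to the GC box GGGCGG that begins 17 bases before the start, present in 32.7% of windows. Gja5 also held the short NKX2-5 motif AAGTG beginning 62 bases before the start, present in 40.7% of windows. Neither promoter held the T-box motif AGGTGT, which 11.8% of windows hold. The TATA box letters TATAAA, held by 12.4% of windows, were likewise in neither. None of the matches overlapped another. These matches describe letters only, and these data hold no measurement of binding. Of the 10 genes, 5 had a window in the promoter table.

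The other connexins and pannexins were low. Of 20 listed, 14 were in the table, 5 averaged at least 1 CPM and 0 reached 100 CPM, beside 71.6% and 9.73% of all rows. No count was found in any sham heart for 2 of them. Summed, all 14 came to 41.0 ± 6.17 CPM, against 550 for Gja1 alone. Gjd3, a connexin of the atrioventricular node, gave 35, 2 and 14 counts and was highest in sham 1 and lowest in sham 2. The summed atrial, arterial endothelial, and mesothelial and epithelial markers had this order too, so it was not particular to the atrial list. The lens connexin Gja3, named after its values were seen, gave 222, 227 and 253 counts, or 20.9 ± 0.877 CPM. That is 16.7 CPM per coding kilobase, beside 19.4 for Gjc1 and 13.3 for Gja4, and 7.57 per exon kilobase, beside 8.46 and 7.89.

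Dsp, which encodes desmoplakin, the link from the desmosome to intermediate filaments, was the highest of the 10 genes before length was taken into account. It gave 1391, 1493 and 1403 CPM in sham 1, 2 and 3, with a CV of 3.91%. Sham 2 was highest and its counting interval (1470 to 1517 CPM) lay above those of the other two hearts, but the difference was only 1.07-fold. Its coding sequence of 8649 bases was the longest of the set, and per coding kilobase it stood at 165 ± 6.47 CPM. In the annotation 499 bases of Dsp exons and 330 of Dsg2 exons overlap a predicted transcript on the opposite strand, a different one for each gene.

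Jup encodes plakoglobin, a catenin relative shared by desmosomes and adherens junctions. It was at 368, 335 and 340 CPM in the 3 hearts, a mean of 348 ± 17.8, highest in sham 1 by 1.10-fold over sham 2. Per coding kilobase Dsp and Jup were close, at 165 ± 6.47 and 156 ± 7.95 CPM, with a Dsp to Jup ratio of 0.977, 1.15 and 1.07. Their order on this scale was therefore not the same in every heart, while per kilobase of all exons Dsp was above Jup in 3 of 3 hearts, by 1.38-fold.

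Pkp2, the plakophilin of heart muscle and the desmosomal gene most often mutated in arrhythmogenic cardiomyopathy, varied most among the 5 desmosomal genes. It gave 2051, 1535 and 1783 counts, or 196, 147 and 141 CPM. Sham 1 stood 1.39-fold above sham 3, with a counting interval of 187 to 204 CPM that was clear of both others, while sham 2 and sham 3 overlapped. Its CV of 18.8% was larger than that of 83.9% of the 8864 genes with at least 10 CPM. The Jup to Pkp2 ratio per coding kilobase was 2.01, 2.44 and 2.58. Pkp4, a related plakophilin, was at 160 ± 4.91 CPM, so the CPM of both were alike, and per coding kilobase the Pkp2 to Pkp4 ratio was 1.77, 1.38 and 1.35.

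The desmosomal cadherins were lower than their cytoplasmic partners. Dsg2, the desmoglein of heart muscle, gave 1161, 1524 and 1629 counts, or 111, 145 and 129 CPM, and all 3 counting intervals were apart, with sham 2 highest. Dsc2, the matching desmocollin, gave 604, 639 and 665 counts, or 57.6, 61.0 and 52.5 CPM, and its counting intervals overlapped for every pair of hearts. Per coding kilobase Dsg2 stood at 38.1 ± 5.16 and Dsc2 at 21.1 ± 1.59 CPM, a ratio of 1.55, 1.92 and 1.97. Dsg2 was thus above Dsc2 in each of the 3 hearts. Sham 1 had the highest Pkp2 level and the lowest Dsg2 level, while sham 2 was above sham 3 for both.

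Most relatives of these genes that form desmosomes in skin and other epithelia were very low, with Perp as an exception. Of 14 other desmosomal genes listed, 13 were in the table and 4 averaged at least 1 CPM, where 71.6% of all rows do. These 4 were Des, Perp, Pkp4 and Ppl, the last named after its values were seen. None of the listed Dsg1, Dsg4, Dsc1, Dsc3, Pkp1 and Pkp3 rows reached 1 CPM on average. Des, which encodes the muscle intermediate filament desmin that desmoplakin anchors, was at 2836, 2868 and 2617 CPM and had a Des to Dsp ratio of 11.9 ± 0.545 per coding kilobase, which was 6.15 per kilobase of all exons and 1.94 without length correction. Perp, a desmosomal membrane protein, was at 177 ± 18.8 CPM. That is 306 CPM per coding kilobase, beside 165 for Dsp, and 90.7 per exon kilobase, beside 149.

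Cdh2, which encodes N-cadherin, the cadherin of the cardiac adherens junction, gave 4186, 4235 and 4161 counts. With the deeper column of sham 3 taken into account this was 399, 404 and 328 CPM, a mean of 377 ± 42.5. Sham 3 was the lowest heart, with a counting interval of 319 to 339 CPM below those of sham 1 and sham 2, which overlapped. Per coding kilobase Cdh2 stood at 139 ± 15.6 CPM, or 3.69 ± 0.686 times Dsg2.

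Ctnna3 encodes αT-catenin, an α-catenin found mainly in heart and testis that binds plakophilin 2. It was much lower, with 337, 372 and 441 counts, or 32.2, 35.5 and 34.8 CPM. Its CV of 5.19% was hardly above the 5.13% that counting alone gives, so no difference between hearts was detectable at this depth. The ubiquitous α-catenin Ctnna1 was at 717 ± 26.2 CPM, and per coding kilobase it exceeded Ctnna3 by 21.8, 20.8 and 19.7 times in the 3 hearts. The neural α-catenin Ctnna2 had no count in any sham heart.

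Among the other adherens junction genes, 14 of 16 listed were in the table, 9 passed an average of 1 CPM, where 71.6% of all rows do, and 6 passed 100 CPM, where 9.73% do. Ctnnb1, which encodes β-catenin, the partner of N-cadherin and of Wnt signalling, was at 482, 431 and 500 CPM. Per coding kilobase it was above its relative Jup by 1.25, 1.23 and 1.40 times, so the order held in each heart. The actin linker Vcl (vinculin) was at 201 ± 11.9 CPM, p120-catenin Ctnnd1 at 126 ± 18.0 and the nectin linker Afdn at 116 ± 18.0. The GPI-anchored cadherin Cdh13 was at 280 ± 21.5 CPM, and the epithelial cadherin Cdh1 gave 2, 0 and 0 counts. Against Cdh5, the cadherin of endothelium and one of the cell type markers, the Cdh2 level per coding kilobase was 1.06, 1.19 and 0.850 times, so neither was higher in all hearts. The 10 endothelial markers summed to 1866, 1716 and 2077 CPM.

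**Figure D2:**
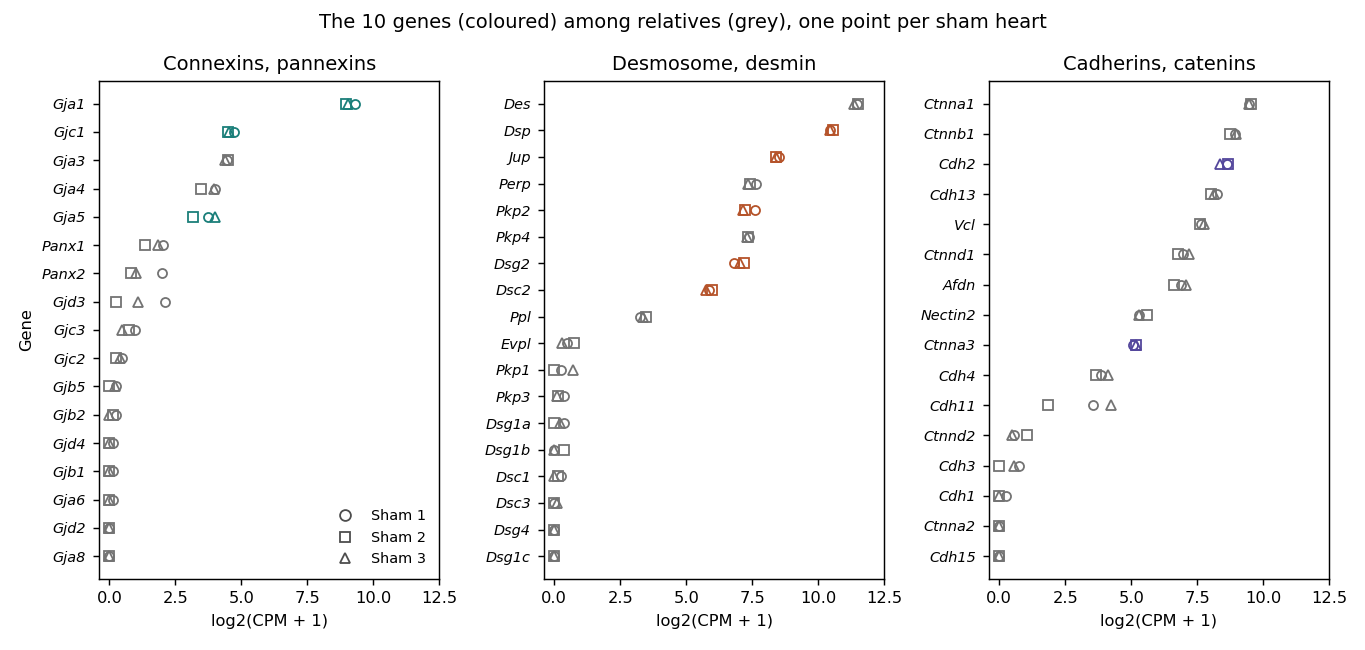
Level of the 10 disc genes (coloured) and of their listed relatives (grey) as log2(CPM + 1), with a point for each of 3 sham hearts, in panels for connexins and pannexins, desmosomal genes with desmin, and cadherins with catenins. Gja1 stands alone at the top of the first panel, Des and Dsp lead the second, and Ctnna1 and Ctnnb1 lie above Cdh2 in the third.

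Genes of the wider disc scaffold were all present. All 16 listed passed an average of 1 CPM and 10 passed 100 CPM, beside 71.6% and 9.73% of all rows. The highest were Fhl2, a LIM protein of the sarcomere, at 1933 ± 104 CPM, the Z-disc protein Ldb3 at 1530 ± 89.1, and Nrap, which links terminal actin to the disc, at 976 ± 56.2. The Xin proteins Xirp2 and Xirp1, which bind catenins at the disc, were at 754 ± 83.2 and 329 ± 24.3 CPM, and Lmo7 was at 498 ± 35.6. Tmem65, a disc membrane protein that binds connexin 43, was at 267 ± 16.6 CPM, the Popeye protein Popdc2 at 687 ± 107 and the scaffold Tjp1 (ZO-1), which binds the connexin 43 tail, at 136 ± 4.76.

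Because a longer transcript gives more reads, genes were set against each other per kilobase. The main scale used the longest coding sequence in GENCODE M21, and a further scale used all annotated exons, which include untranslated parts. Per coding kilobase the order was Gja1 (480 ± 57.4 CPM per kb), Dsp (165), Jup (156), Cdh2 (139), Pkp2 (67.5 ± 12.7), Dsg2 (38.1), Dsc2 (21.1), Gjc1 (19.4 ± 1.77), Ctnna3 (12.7 ± 0.660) and Gja5 (10.6 ± 3.15). The ranges of neighbours over the 3 hearts overlapped for Dsp with Jup, for Dsc2 with Gjc1 and for Ctnna3 with Gja5, so those neighbours did not differ beyond their spread. The other 6 steps were clear of overlap, and the largest were 2.90-fold from Gja1 to Dsp and 2.06-fold from Cdh2 to Pkp2.

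The exon scale kept most of this order but changed several of its steps. Gja1 stood at 163 ± 19.5 and Dsp at 149 ± 5.83 CPM per exon kilobase, and their ranges overlapped, so the lead of Gja1 depended on the length used. Ctnna3 (9.08 ± 0.471) then lay just above Gjc1 (8.46 ± 0.772), with overlapping ranges, and Gja5 fell to 2.07 ± 0.612, clear of Gjc1 by 4.09-fold. The ranges of Cdh2 and Pkp2 also came to overlap, although Cdh2 was above Pkp2 in 3 of 3 hearts, by 1.38-fold. Dsp with Jup (149 against 108 ± 5.52) no longer overlapped, and neither did Dsc2 (12.3 ± 0.926) with its next lower gene. Gja1 has 1146 coding bases in 3371 exon bases and Gja5 has 1104 in 5689, while Dsp has 8649 in 9592.

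**Figure D3:**
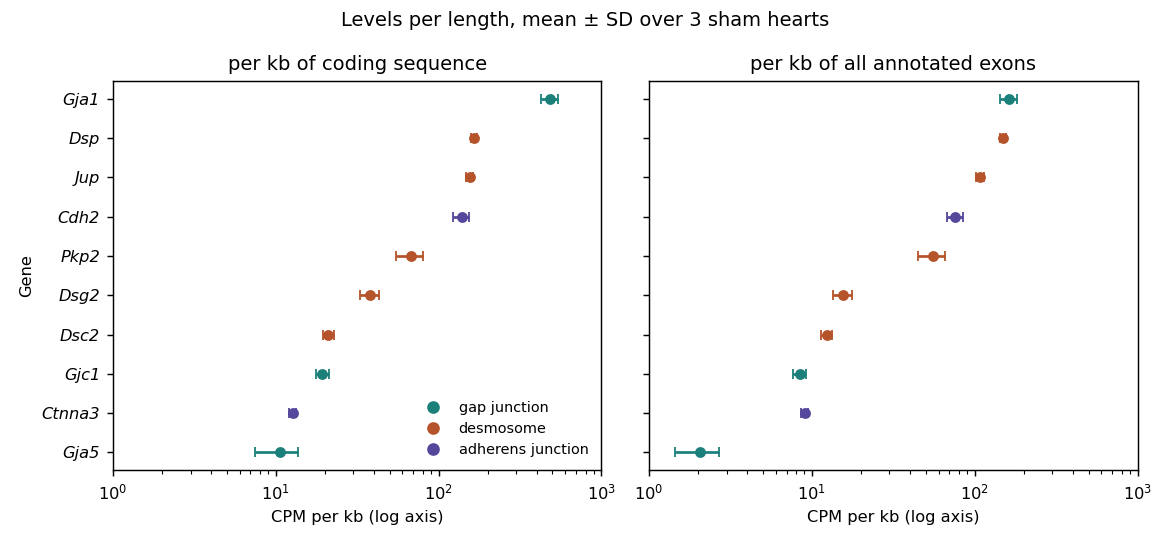
Levels of the 10 disc genes per kilobase of coding sequence (left) and of all annotated exons (right), as CPM per kb on log axes, with points at the mean and bars of 1 SD over 3 sham hearts. Gja1 is clear of Dsp on the left (480 against 165) and overlaps it on the right (163 against 149), and Gja5 is lowest on both.

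The junction types were then compared within each heart, using the mean over the genes of a type of log2 CPM per coding kilobase. The desmosomal genes averaged 6.07 ± 0.06, the connexins 5.51 ± 0.22 and the adherens junction genes 5.39 ± 0.08 on this log2 scale. The desmosomal mean was above the adherens mean by 0.71, 0.63 and 0.69 in sham 1, 2 and 3, a difference of 0.68 ± 0.04 that had the same sign in 3 of 3 hearts (exact two-sided paired permutation p = 0.25, adjusted p = 0.375 over 3 pairs). The connexin mean was below the desmosomal mean by a difference of -0.56 ± 0.25, also in 3 of 3 hearts (exact permutation p = 0.25, adjusted p = 0.375). The connexin and adherens means differed by 0.12 ± 0.29, with the sign of 2 of 3 hearts (exact permutation p = 0.5, adjusted p = 0.5). With 3 hearts this test cannot go below 0.25, so none of the 3 comparisons could pass a threshold of 0.05.

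These averages hid large differences inside a type. The highest connexin was 45.1 times the lowest per coding kilobase, the higher adherens gene 10.9 times the lower, and the highest desmosomal gene 7.84 times the lowest. With exon lengths these became 79.0, 8.39 and 12.1 times. Summed instead of averaged, the connexins came to 510 ± 60.4 CPM per coding kilobase, the desmosomal genes to 448 ± 15.5 and the adherens genes to 152 ± 15.5. The connexins then ranked above the desmosome by a log2 difference of 0.18, which turns the sign of the mean. Per exon kilobase the sums were 174 ± 20.5 for the connexins and 340 ± 12.6 for the desmosomal genes, so there the desmosome was higher. Without Gja5 the mean difference between connexins and desmosomal genes was 0.52, again with the connexins higher. With exon lengths this difference without Gja5 was -0.25, so there the connexins were lower. With exon lengths and Gja5 included, the connexins fell below the adherens genes by a log2 difference of -0.91. Of the 3 comparisons only that of desmosome over adherens junction thus kept its sign in every setting tried. No setting changed the genes of the desmosomal or the adherens type, so this sign was not tested against that choice. Ctnna1 and Ctnnb1, which were outside the adherens type, stood at 264 and 201 CPM per coding kilobase, beside 139 for Cdh2.

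The 10 genes varied between the sham hearts about as much as other genes of at least 10 CPM. Their median CV was 10.2%, beside 9.32% for all 8864 genes with at least 10 CPM, and 1 of the 10, Gja5, reached a CV of 20% or more, as did 14.2% of those genes. The summed desmosomal level was 2123 ± 58.2 CPM, a CV of 2.74%, and Dsp alone gave 1429 of it. For Gjc1, Dsc2 and Ctnna3 the counting intervals of all hearts overlapped, and for the other 7 at least a pair of hearts lay apart.

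Which heart was highest or lowest for a gene depended in part on scaling, and no difference between junction types was tested. In CPM, all 3 connexins were lowest in sham 2, as were 48.8% of all genes with at least 1 CPM, and 5 of the 7 desmosomal and adherens genes (Dsp, Dsg2, Dsc2, Cdh2 and Ctnna3) were highest there, as were 21.0% of all genes. With TMM scaling or DESeq2 size factors 1 of the 3 connexins, Gja5, was still lowest in sham 2, beside 34.8% and 33.7% of all genes, which is the share of all genes and so no result about connexins. The same 5 genes were again highest there, beside 35.2% and 36.5% of all genes, though for Dsc2 and Ctnna3 among them the counting intervals in CPM overlapped for every pair of hearts. Scaled to the summed ventricular muscle markers, which stood at 140410, 154862 and 138709 CPM, all 3 connexins were lowest in sham 2, as were 72.1% of all genes, and 1 of the 7 genes, Dsg2, was highest, beside 7.03% of all genes. Across these 4 scalings 6 of the 10 genes kept the same highest heart: Gja1, Gjc1, Jup and Pkp2 in sham 1, Dsg2 in sham 2 and Gja5 in sham 3. In CPM, 37.0% of all genes with at least 1 CPM were highest in sham 1 and 42.0% in sham 3.

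Ratios inside a heart do not depend on scaling. The ratio of Gja1 to Dsp per coding kilobase was 3.38, 2.51 and 2.85 and that of Gja1 to Cdh2 was 3.70, 2.92 and 3.82. With exon lengths the means were 1.10 and 2.16 in place of 2.91 and 3.48, while the order of hearts cannot change with the length used. By these ratios there was least connexin 43 message in sham 2 relative to both desmoplakin and N-cadherin. Sham 2 also had the lowest sums of fibroblast markers (2068, 1049 and 2378 CPM), mesothelial and epithelial markers (29.7, 4.77 and 15.7 CPM) and macrophage markers (587, 465 and 749 CPM). All 9 fibroblast markers were lowest there, beside 48.8% of all genes with at least 1 CPM. Every other marker list had its lowest sum in sham 2 too, except that of ventricular muscle, which was highest there. Epcam of the mesothelial and epithelial list had no count. The part of these other cells in the disc gene values was not tested.

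**Figure D4:**
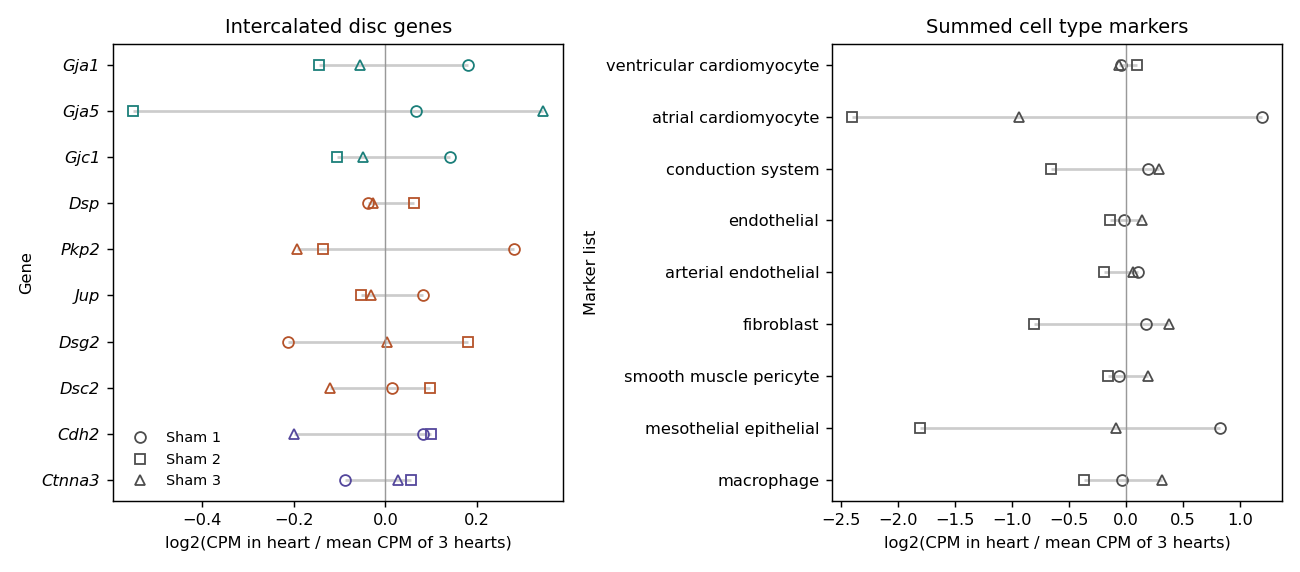
Each heart's level relative to the mean of the 3 sham hearts, as a log2 ratio of CPM, for the 10 disc genes (left) and for summed cell type markers (right, with a wider axis). Gja5 spans the widest range on the left, with sham 2 lowest. On the right every marker list except that of ventricular muscle is lowest in sham 2.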

How the data were processed

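RNA-seq of mouse heart gave 6 libraries, 3 sham and 3 CKD, all with the same batch label. The submitters' processing notes name Trimmomatic, HISAT2, HTSeq, DESeq and the build mm9, while versions, settings, annotation and use of strand were not given in these notes. The authors deposited raw counts per gene symbol in a single table, whose columns were matched to samples by name. CPM was computed from the deposited counts and column totals. Lengths came from the basic GENCODE M21 set (GRCm38), matched by symbol for 16856 of 17447 rows, because the planned protein table was not available. They give lengths and overlaps only, and no coordinates of the counted features are printed. Promoters came from RefSeq GRCm38.p6. Junction types were compared with an exact paired permutation test (scipy 1.17.1) and Benjamini-Hochberg adjustment, and its p-values reflect only how these samples vary. Scaling alternatives used TMM (edgeR 4.0.16) and size factors (DESeq2 1.42.0) over the sham columns. Intervals are exact 95% Poisson intervals for counting error only. The genes, lists and tests were chosen with earlier results of these data known. By rule, all 10 disc genes were named, and of the listed relatives those with at least 100 CPM plus Gja4, Gjd3, Des and Cdh1, and markers come from lists by cell type. Genes with near-identical copies may share reads. The scripts were tested on simulated data.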

Additional observations from a re-analysis of the deposited data

How the results depend on the processing

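No paired analysis was possible because the CKD columns were not compared with sham, so the shared replicate numbers pair nothing. Mean CPM of the 10 disc genes moved by at most 0.721% with TMM scaling, 0.643% with DESeq2 size factors and 1.37% when scaled to ventricular markers. All of these scalings hold the average scale of the hearts near that of CPM by construction, so such small moves say nothing about stability. The ventricular marker scaling was chosen after seeing the data, as were exon lengths for ratios, for summed levels and for the comparison without Gja5. Leaving out a heart moved no mean CPM by 1 SD, which is so by construction and says nothing about stability. The connexin minus desmosome log2 difference reversed to 0.18 for summed levels and 0.52 without Gja5, and the connexin minus adherens difference reversed to -1.12 for the median, -1.11 without length correction and -0.91 with exon lengths. With exon lengths the connexin minus desmosome difference did not reverse, at -0.98 for summed levels and -0.25 without Gja5. Without 1 heart it was -0.64 to -0.41 per coding kilobase, the connexin minus adherens difference 0.03 to 0.29, and the desmosome minus adherens difference 0.66 to 0.70. Connexins lowest in sham 2 fell from 3 to 1 with TMM and to 1 with DESeq2 factors, and desmosomal and adherens genes highest in sham 2 fell from 5 to 1 when scaled to ventricular markers. The share of all genes highest in sham 2 moved from 21.0% to 35.2% (TMM), 36.5% (DESeq2) and 7.03% (ventricular markers). Among ratios per coding kilobase, Gja1 to Dsp reversed to 0.386 without length correction, and Cdh2 to Cdh5 to 0.965 with exon lengths. With a heart left out Cdh2 to Cdh5 was 0.957 (without sham 2) to 1.13 (without sham 3), and Cdh2 to Cdh13 was 0.982 (without sham 2) to 1.14 (without sham 3). The cause was not tested. Depth limits Gja5, Gjc1 and Ctnna3 most, at 84 to 441 counts.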
